A study of Mus musculus with 8 samples.

Results

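The chamber light chain genes Myl2, Myl3, Myl4 and Myl7, the natriuretic peptide genes Nppa and Nppb, and the sarcolipin gene Sln were examined in the neonatal mouse heart. These 7 genes were chosen by name, and each matched 1 locus among the 80155 loci measured, of which 39614 carry a gene symbol. RNA-seq was performed on whole hearts of male Hsd:ICR(CD-1) mice, an outbred stock, at postnatal day 1 (P1, n = 4) and postnatal day 7 (P7, n = 4), with 1 library per heart. By the labels the stages differed in age alone and no treatment was named, and the atrial appendages of all hearts had been removed before freezing. The values are FPKM, the fragments assigned to a locus divided by its length in kilobases and by the mapped fragments of the library. In such bulk tissue, fewer cells of a type and less RNA per cell cannot be told apart.

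Each myosin heavy chain of the sarcomere carries a regulatory and an essential light chain on its lever arm. In the mouse heart the atrial cardiomyocytes mainly use Myl7 (regulatory) and Myl4 (essential), and the ventricular cardiomyocytes mainly use Myl2 (regulatory) and Myl3 (essential). Nppa and Nppb encode the hormones ANP and BNP, which cardiomyocytes secrete in response to wall stretch and which lower blood volume and pressure. Before birth Nppa is made in the ventricular trabeculae as well as in the atria, whereas after birth its expression is largely atrial. Sarcolipin is a small membrane peptide that inhibits the sarcoplasmic reticulum calcium pump SERCA, and in the mouse heart it belongs mainly to the atria.

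The genes lie on 4 chromosomes, given here by GENCODE M21 on GRCm38. Nppb (chr4:147985788-147987205) and Nppa (chr4:148000722-148002079) are neighbours on the plus strand, with 13516 bases between them. Myl2 is found at chr5:122100951-122113472, Myl3 at chr9:110741861-110769798, Sln at chr9:53850164-53854560 and Myl4 at chr11:104550663-104595753, all on the plus strand. Myl7 lies on the minus strand at chr11:5896637-5898782. The measured Myl3 locus began further in, at position 110763616, and ran on to 110775100. Other measured loci also differed from the genes. Those of Myl2 and Nppa ran on to 122138957 and 148004014, that of Nppb began at 147985246, and that of Sln spanned 53850251 to 53853844. An antisense gene, Gm13054, overlaps 989 of the 1358 bases of Nppa from the other strand.

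The promoters of Nppa, the hormone gene whose stages did not overlap, and of the light chain genes Myl7, Myl4 and Myl3, which are compared as pairs within each heart, are shown as the RefSeq sequence of GRCm38.p6 upstream of the transcript start, 5′ to 3′ on the strand of the gene. This assembly is of C57BL/6J, not of the outbred stock studied. Capitals mark matches to motifs of cardiac transcription factors: GATAA (Gata4), AAGTG (Nkx2-5), GTGTGA (Tbx5) and GGAATG (Tead1) on either strand, TATAA on the strand shown, and the CArG box of SRF and the MEF2 site by their names.
Nppa: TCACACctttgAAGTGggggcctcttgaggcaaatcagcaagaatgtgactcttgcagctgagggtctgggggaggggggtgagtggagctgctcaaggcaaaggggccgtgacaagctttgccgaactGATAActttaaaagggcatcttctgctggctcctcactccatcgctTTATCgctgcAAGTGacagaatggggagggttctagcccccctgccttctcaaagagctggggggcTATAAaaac
Myl7: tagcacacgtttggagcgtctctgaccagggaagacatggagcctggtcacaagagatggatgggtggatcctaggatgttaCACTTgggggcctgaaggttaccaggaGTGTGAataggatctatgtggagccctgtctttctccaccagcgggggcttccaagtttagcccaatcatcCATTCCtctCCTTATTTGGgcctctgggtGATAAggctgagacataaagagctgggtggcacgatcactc
Myl4: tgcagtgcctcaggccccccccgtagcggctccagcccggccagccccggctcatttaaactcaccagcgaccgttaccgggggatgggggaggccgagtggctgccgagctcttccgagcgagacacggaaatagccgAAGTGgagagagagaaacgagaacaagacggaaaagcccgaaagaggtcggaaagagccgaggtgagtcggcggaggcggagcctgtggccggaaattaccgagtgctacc
Myl3: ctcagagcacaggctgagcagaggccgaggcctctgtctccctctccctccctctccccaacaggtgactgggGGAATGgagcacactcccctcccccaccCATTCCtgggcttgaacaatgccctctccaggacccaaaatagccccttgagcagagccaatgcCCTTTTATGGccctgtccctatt
The Nppa stretch is chr4:148000472-148000721 (plus strand), Myl7 is chr11:5898783-5899032 (minus strand), Myl4 is chr11:104550413-104550662 (plus strand), and Myl3 is chr9:110763428-110763615 (plus strand). The Myl3 stretch ended at the measured locus, 62 bases before the RefSeq start, and so held 188 rather than 250 bases. Nppa held 2 matches to the Gata4 motif, 2 to the Nkx2-5 motif, 1 to the Tbx5 motif and 1 to the TATA motif. Myl7 held 1 match each to the Gata4, Nkx2-5, Tbx5 and Tead1 motifs and 1 CArG box. The shown Myl3 stretch held 2 matches to the Tead1 motif and 1 CArG box, and Myl4 held 1 match to the Nkx2-5 motif. Myl3 had a further match, to the Gata4 motif, 18 to 14 bases before the RefSeq start, in the 62 bases not shown. Among 32851 mouse promoters of 250 bases, the Gata4 motif was present in 22.6%, that of Nkx2-5 in 40.7%, of Tbx5 in 12.3%, of Tead1 in 12.6%, the TATA motif in 16%, the CArG box in 1.47% and the MEF2 site in 2.92%. A match is a string of letters and not a shown binding site.

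Together the 7 genes held 2.85% to 4.47% of the annotated FPKM of a heart. Myl2 was the most abundant of them, between rank 2 and rank 8 among all annotated loci in every heart, and Sln the least abundant at P1, between rank 131 and 509 over both stages. At P1 the mean FPKM decreased in the order Myl2, Myl3, Myl4, Nppa, Myl7, Nppb and Sln. The neighbours Myl4 and Nppa, and Nppa and Myl7, overlapped between hearts, and the other neighbours did not. At P7 the order was Myl2, Myl3, Myl4, Myl7, Nppa, Nppb and Sln, where Myl7 and Nppa overlapped, as did Nppb and Sln. The genes known mainly from the atria (Myl4, Myl7, Nppa and Sln) were thus measured at 148 to 2513 FPKM in hearts without appendages.

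P1 replicate 3 held 28662 loci with FPKM of at least 1, against 20269 to 22292 in the other 7 hearts, and had the lowest Myl2, Myl3 and Myl4. Without it the log2 fold change was 0.03 for Myl2 (0.14 with all hearts), 0.11 for Myl4 (0.36 with all hearts), 0.86 for Myl3, -0.50 for Nppa and 0.90 for Sln. P1 replicate 4 had the lowest Sln, Myl7 and Bmp10 of all P1 hearts, and the highest Nppb and Myh7.

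**Figure D1:**
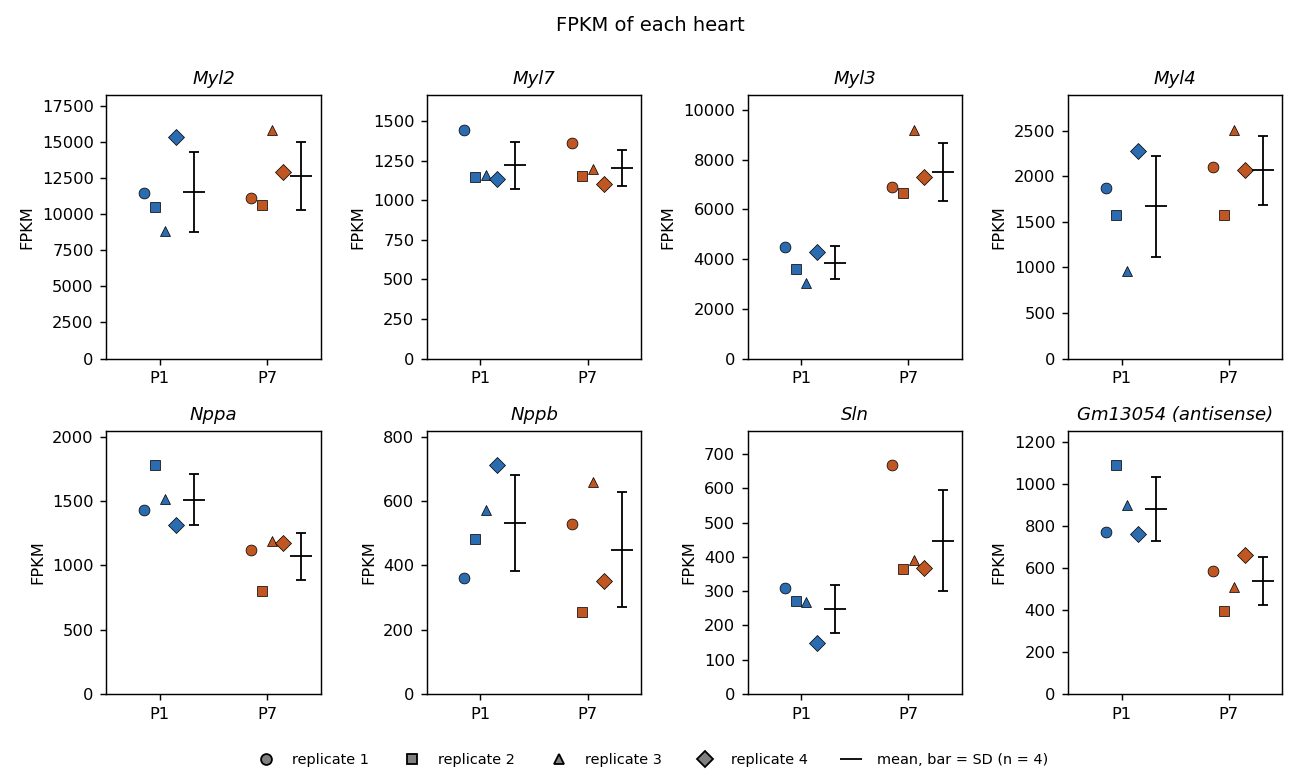
FPKM of the 7 genes and of Gm13054 in each heart at P1 (blue) and P7 (orange), with the mean and SD of each stage (n = 4); each panel has its own linear axis from 0. Every P7 heart lies above every P1 heart for Myl3 and Sln and below for Nppa and Gm13054, and the stages overlap for the other 4 genes.

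Between the stages, 0 of the 7 genes were differentially expressed, whereas 3 had an unadjusted limma p under 0.05. Differential expression required an adjusted p under 0.05 by limma (Benjamini-Hochberg over all tested loci) together with mean FPKM that differed at least 1.5-fold. The same rule called 3.82% of all 43172 tested loci (higher in P7: 3.45%, lower: 0.371%) and 8.14% of the annotated ones (higher: 7.74%, lower: 0.401%). For 3 of the 7 genes the stages did not overlap, with every P7 heart above every P1 heart for Myl3 and Sln and below for Nppa. Such separation was seen in 12.5% of all tested loci and 20% of annotated loci (above: 8.5% and 17.3%, below: 4.03% and 2.69%). In the exact two-sided permutation test over the 70 assignments of hearts to stages it gives p = 0.0286, the smallest value that 4 against 4 hearts allow. The median log2 fold change was 0.14 over the 7 genes, 0.19 over the tested annotated loci and -0.08 over all tested loci.

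The ventricular regulatory light chain Myl2 did not separate the stages. In replicates 1 to 4 its FPKM was 11469, 10486, 8876 and 15352 at P1 and 11116, 10662, 15876 and 12936 at P7. The highest P1 heart (replicate 4) and the highest P7 heart (replicate 3) stood side by side, and the ranges overlapped. The means were 11546 ± 2753 and 12648 ± 2366 (SD, n = 4), with a log2 fold change of 0.14 (SE 0.29, limma adjusted p = 0.776). Its direction turned under other scalings of the hearts, to -0.13 with median-ratio scaling over annotated loci and to -0.04 when each heart was scaled to its annotated FPKM total.

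Myl7, the atrial regulatory light chain, was the steadiest of the 7 genes. At P1 it measured 1446, 1145, 1157 and 1135 FPKM, and at P7 1364, 1152, 1198 and 1100.1 FPKM. Replicate 1 was the highest heart of each stage, and the others lay within a narrow band. The coefficient of variation was 12.3% at P1 and 9.47% at P7, the lowest of the panel. The means of 1221 ± 151 and 1204 ± 114 differed by a log2 fold change of -0.02 (SE 0.21, limma adjusted p = 0.965), whose sign changed when single hearts were left out.

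The ventricular essential light chain Myl3 showed the largest difference in this group. Its FPKM was 4482, 3588, 3047 and 4276 at P1 and 6885, 6656, 9203 and 7298 at P7. Every P7 heart exceeded every P1 heart, and the mean went from 3848 ± 657 to 7510.5 ± 1159, a ratio of 1.95. The log2 fold change was 0.97 (SE 0.26), with an unadjusted p of 0.00240 and an adjusted p of 0.0570 by limma, just outside the threshold. It ranged from 0.86 to 1.05 when single hearts were left out, and with median-ratio scaling it was 0.69 and the stages remained apart. With quantile normalization the stages overlapped.

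Myl4, the atrial essential light chain, which fetal ventricles also express, varied more between hearts than between stages. The P1 hearts measured 1868, 1581, 959 and 2278 FPKM and the P7 hearts 2101, 1581, 2513 and 2075 FPKM. The lowest and the highest of the 8 hearts were P1 replicate 3 and P7 replicate 3, and the ranges overlapped over most of their length. The means were 1671 ± 554 and 2067 ± 381 (log2 fold change 0.36, SE 0.29, limma adjusted p = 0.489), and the fold change ranged from 0.11 without P1 replicate 3 to 0.53 without P1 replicate 4.

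A ratio of 2 genes within a heart is free of the scaling of that heart, and 10 such ratios were compared between stages with the exact two-sided permutation test. After Benjamini-Hochberg adjustment over the 10 ratios none had p under 0.05 (0 of 10), and 2 ratios did not overlap between stages, both of them with Myl3. The atrial to ventricular essential ratio Myl4/Myl3 was 0.417, 0.441, 0.315 and 0.533 at P1 and 0.305, 0.238, 0.273 and 0.284 at P7. Every P7 heart was below every P1 heart, although the highest P7 value and the lowest P1 value nearly touched. The mean went from 0.426 ± 0.0896 to 0.275 ± 0.0283, a log2 difference of -0.61 (SE 0.17, exact p = 0.0286, adjusted p = 0.143). Expressed as a share, Myl4 made up 29.7% ± 4.46 of the essential pair at P1 and 21.5% ± 1.76 at P7 (SD, n = 4).

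The regulatory pair gave no such separation. Myl7/Myl2 was 0.126, 0.109, 0.130 and 0.0740 at P1 and 0.123, 0.108, 0.0755 and 0.0850 at P7. The P1 range enclosed all P7 values, with the lowest value in P1 replicate 4. The log2 difference was -0.16 (SE 0.25, exact p = 0.486, adjusted p = 0.514), and Myl7 made up 9.87% ± 2.12 of the pair at P1 and 8.88% ± 1.78 at P7. When both atrial light chains were summed over both ventricular ones, the ratio was 0.188 ± 0.0156 at P1 and 0.164 ± 0.0196 at P7 (log2 difference -0.20, SE 0.10, exact p = 0.0857, adjusted p = 0.214).

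Among the ventricular pair, Myl3/Myl2 was the ratio with the widest gap between the stages. It was 0.391, 0.342, 0.343 and 0.279 at P1 and 0.619, 0.624, 0.580 and 0.564 at P7. All P7 hearts were well above all P1 hearts, and the spread within a stage was small. The mean went from 0.339 ± 0.0461 to 0.597 ± 0.0296, a log2 difference of 0.83 (SE 0.11, exact p = 0.0286, adjusted p = 0.143), and it stayed between 0.74 and 0.90 when single hearts were left out. Of the atrial pair, Myl4/Myl7 was 1.38 ± 0.484 at P1 and 1.72 ± 0.328 at P7, with overlapping hearts (exact p = 0.257, adjusted p = 0.321).

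**Figure D2:**
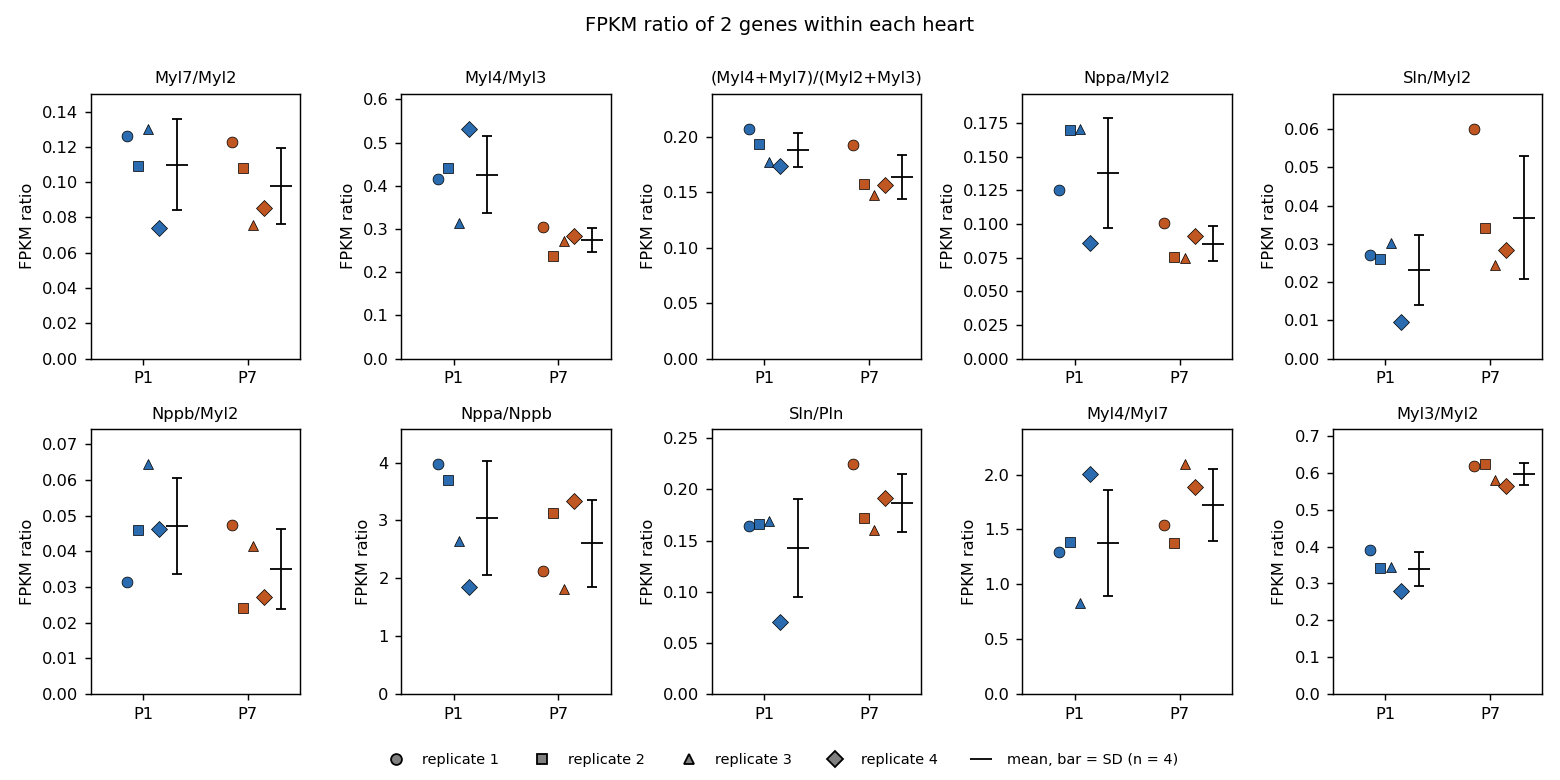
The 10 FPKM ratios within each heart at P1 (blue) and P7 (orange), with the mean and SD of each stage (n = 4) on linear axes from 0. Only Myl4/Myl3 (P7 below) and Myl3/Myl2 (P7 above) are free of overlap between the stages. P1 replicate 4 is the lowest P1 heart for Myl3/Myl2, Myl7/Myl2, the summed light chain ratio, Nppa/Myl2, Sln/Myl2, Nppa/Nppb and Sln/Pln. It is the highest P1 heart for Myl4/Myl3 and Myl4/Myl7.

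The peptide hormone gene Nppa was lower in every P7 heart. The P1 hearts measured 1432, 1781, 1516 and 1315 FPKM and the P7 hearts 1119, 800.3, 1188 and 1177 FPKM. The 2 ranges did not overlap, and P7 replicate 2 was the lowest heart. The mean went from 1511 ± 198 to 1071 ± 183, a ratio of 0.709, with a log2 fold change of -0.50 (SE 0.23, unadjusted p = 0.0465, adjusted p = 0.262 by limma). The difference lay between -0.37 and -0.57 when single hearts were left out, and the stages stayed apart with median-ratio scaling (-0.78), quantile normalization (-0.66), scaling to the annotated total (-0.69) and a correction for GC content (-0.79), with limma adjusted p between 0.0917 and 0.126.

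The antisense gene Gm13054 was lower in every P7 heart as well. Its FPKM was 772, 1089, 898 and 759 at P1 and 584, 392, 508 and 663 at P7 (limma adjusted p = 0.117). Within the stages it deviated together with Nppa (r = 0.89 over 8 hearts). Gm13054/Nppa was 0.539 to 0.612 at P1 and 0.427 to 0.563 at P7 (exact two-sided permutation p = 0.0571). The library kit keeps the strand, but whether strand was used in counting was not stated, and without it reads of the 2 overlapping genes cannot be told apart. The Nppa value is uncertain to that extent.

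Nppb, the neighbour of Nppa, varied most within the P7 stage. Its FPKM was 359.9, 481, 572 and 711 at P1 and 527, 255, 658 and 352 at P7. The P7 hearts spanned a 2.57-fold range that reached below the lowest and close to the highest P1 heart. The means were 531 ± 148 and 448 ± 179 (log2 fold change -0.29, SE 0.31, limma adjusted p = 0.581), and the fold change ranged from -0.06 without P7 replicate 2 to -0.51 without P7 replicate 3. P7 replicates 2 and 4, the hearts with the least Nppb of that stage, were also the only hearts in which the brown fat gene Ucp1 exceeded 1 FPKM (3.08 and 10.3, against at most 0.147 in the other 6 hearts). Adipoq and Plin1, fat cell genes, were likewise highest in these hearts. The 4 fat markers summed to 8.30 to 16.2 FPKM at P1 and 20.6 to 39.3 FPKM at P7. Most of that sum was Cidea (8.22 to 15.5 and 20.6 to 24.8 FPKM), the 1 of 4 called higher. Ucp1 was listed at 0 in 2 hearts. In P7 replicate 1 Ucp1, Adipoq and Plin1 were all at 0 while Cidea was at 20.6 FPKM, so the sum does not measure fat cells alone. The part of such cells in the Nppb values was not tested.

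Relative to the ventricular light chain, Nppa/Myl2 was 0.138 ± 0.0408 at P1 and 0.0854 ± 0.0127 at P7 (log2 difference -0.65, SE 0.26, exact p = 0.0857, adjusted p = 0.214). Only P1 replicate 4, at 0.0856, entered the P7 range of 0.0748 to 0.101. Nppb/Myl2 was 0.0470 ± 0.0135 and 0.0350 ± 0.0112 with overlapping hearts (exact p = 0.200, adjusted p = 0.321). The ratio of both hormones, Nppa/Nppb, was 3.04 ± 0.981 at P1 and 2.60 ± 0.752 at P7 (exact p = 0.514).

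The 9 genes listed with these peptides process, receive or clear them, apart from the peptide gene Nppc and the kinase genes Prkg1 and Prkg2. Of the 9 genes, 7 were expressed enough to be tested, 1 rose and 0 fell by limma. The riser was Npr1, the guanylyl cyclase receptor of ANP and BNP, from 3.27 ± 1.50 to 7.87 ± 1.43 FPKM (adjusted p = 0.0288). Furin, a protease that cleaves the BNP precursor, and Npr2, the receptor of C-type natriuretic peptide, were above in every P7 heart without passing the test (adjusted p = 0.104 and 0.0774). Npr3, the clearance receptor, was the reverse, at 15.6 ± 1.56 and 10.3 ± 2.45 FPKM with every P7 heart below (adjusted p = 0.139). Corin, the protease that activates the ANP precursor, measured 21.3 ± 3.58 and 24.4 ± 6.63 FPKM. Its locus also carried the symbol AU023070.

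Sln was higher in every P7 heart. It measured 309.7, 272, 268 and 148 FPKM at P1 and 668, 364, 389.97 and 368 FPKM at P7. P1 replicate 4 was far below and P7 replicate 1 far above the other hearts of their stage, and the remaining hearts formed narrow groups. The mean went from 249 ± 70.1 to 448 ± 148, a ratio of 1.79, with a log2 fold change of 0.84 (SE 0.28, unadjusted p = 0.0106, adjusted p = 0.129 by limma). Without P1 replicate 4 the log2 fold change was 0.61 and without P7 replicate 1 it was 0.63. The stages overlapped when the hearts were scaled by median ratio (0.57) or to the annotated total (0.66).

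Phospholamban (Pln) is another small inhibitor of SERCA. The ratio Sln/Pln was 0.165, 0.166, 0.169 and 0.0705 at P1 and 0.225, 0.172, 0.160 and 0.191 at P7. Except for P1 replicate 4 the P1 hearts were nearly identical, and the lowest P7 heart lay below them. The log2 difference was 0.47 (SE 0.33, exact p = 0.171, adjusted p = 0.321) and dropped to 0.15 without P1 replicate 4. Sln/Myl2 was 0.0232 ± 0.00920 and 0.0368 ± 0.0160 (log2 difference 0.70, exact p = 0.229, adjusted p = 0.321), and the difference was 0.32 without P1 replicate 4.

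Of 7 measured genes of SERCA and its regulators, 6 were tested, 2 rose and 0 fell by limma. Hrc, a histidine-rich calcium-binding protein of the sarcoplasmic reticulum, rose from 16.3 ± 7.03 to 37.5 ± 11.1 FPKM (adjusted p = 0.0398). The gene 2310015B20Rik, named Mrln (myoregulin) in RefSeq, also passed (limma adjusted p = 0.0443). Its level was at most 0.337 FPKM at P1 and 0.614 to 1.60 FPKM at P7. It thus met the filter of 1 FPKM only through P7 hearts, and its call is not independent of that filter. The cardiac pump gene Atp2a2 was 1806 ± 325 at P1 and 2295 ± 211 at P7, with every P7 heart above every P1 heart (adjusted p = 0.410), and Pln was 1800.3 ± 239 and 2362 ± 457 (adjusted p = 0.395).

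Further genes were taken from lists of chamber-enriched genes. Their enrichment was not measured in these whole hearts, and a listed gene may also be expressed in the other chamber. Among 13 further atrial-enriched genes, 3 rose and 0 fell by limma, and the median log2 fold change was 0.46. Of all tested annotated loci 7.74% were called higher and 0.401% lower, with a median of 0.19. A surplus of risers was thus common to the whole table, and the counts of the other lists have the same background. Mybphl, a myosin-binding protein, rose from 8.82 ± 2.99 to 21.7 ± 2.69 FPKM (adjusted p = 0.0164). Stard10, a lipid transfer protein, rose from 20.2 ± 8.63 to 47.1 ± 8.12 FPKM (adjusted p = 0.0271). Kcna5, a voltage-gated potassium channel, rose from 5.17 ± 1.08 to 13.0 ± 2.62 FPKM (adjusted p = 0.0142). Bmp10, an atrial growth factor, did not (13.9 ± 7.06 and 15.8 ± 2.61 FPKM, adjusted p = 0.577).

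Among 7 further ventricle-enriched genes, 3 rose and 0 fell by limma, and the median log2 fold change was 0.38. All 3 were Iroquois transcription factors. Irx4, which represses atrial genes in the ventricle, went from 19.5 ± 6.10 to 36.4 ± 4.45 FPKM (adjusted p = 0.0468), Irx3 from 4.93 ± 1.79 to 11.1 ± 2.27 FPKM (adjusted p = 0.0334) and Irx5 from 8.57 ± 1.47 to 16.4 ± 2.22 FPKM (adjusted p = 0.0271). Hey2, a repressor of atrial genes in the compact ventricular wall, was 28.7 ± 6.06 at P1 and 17.1 ± 1.90 at P7, with every P7 heart below (adjusted p = 0.0717).

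In the wider light chain family, 0 of 6 tested loci were called by limma (3 at an unadjusted p under 0.05), and 2 had stages that did not overlap. Myl1, an essential light chain of skeletal muscle, was 82.5 ± 10.01 at P1 and 47.5 ± 14.0 at P7, with every P7 heart below (adjusted p = 0.0721). The nonmuscle light chains Myl12a and Myl12b share 1 locus, which was above in every P7 heart at 399 against 235 FPKM (adjusted p = 0.0753). Of 7 tested kinases and phosphatase subunits that act on light chains, 1 rose, the phosphatase subunit Ppp1r12c, from 26.8 ± 6.79 to 53.2 ± 6.15 FPKM (adjusted p = 0.0276). The cardiac light chain kinase Mylk3 was 48.6 ± 21.8 and 63.2 ± 15.5 FPKM (adjusted p = 0.411). Of 8 transcription factors known to act on these genes, 0 were called by limma (3 at an unadjusted p under 0.05), while Gata4 and Nkx2-5 were above in every P7 heart (adjusted p = 0.113 and 0.177).

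The 10 genes called in these lists depended on the hearts used. All 10 were called again without P1 replicate 4, 0 without P1 replicate 2 or without P7 replicate 1, and 1 (Kcna5) with the correction for GC content. That correction lowered the log2 fold change from 0.91 to 0.45 for Irx4, from 1.06 to 0.59 for Irx3, from 0.87 to 0.41 for Irx5, from 0.99 to 0.52 for Ppp1r12c and from 1.10 to 0.72 for Npr1 (limma adjusted p between 0.162 and 0.344). Kcna5 was called in 16 and Mybphl in 14 of the 19 alternative settings. The gene 2310015B20Rik was called in 5 of the 18 in which it was tested. The direction of the 10 genes was the same wherever they were tested.

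**Figure D3:**
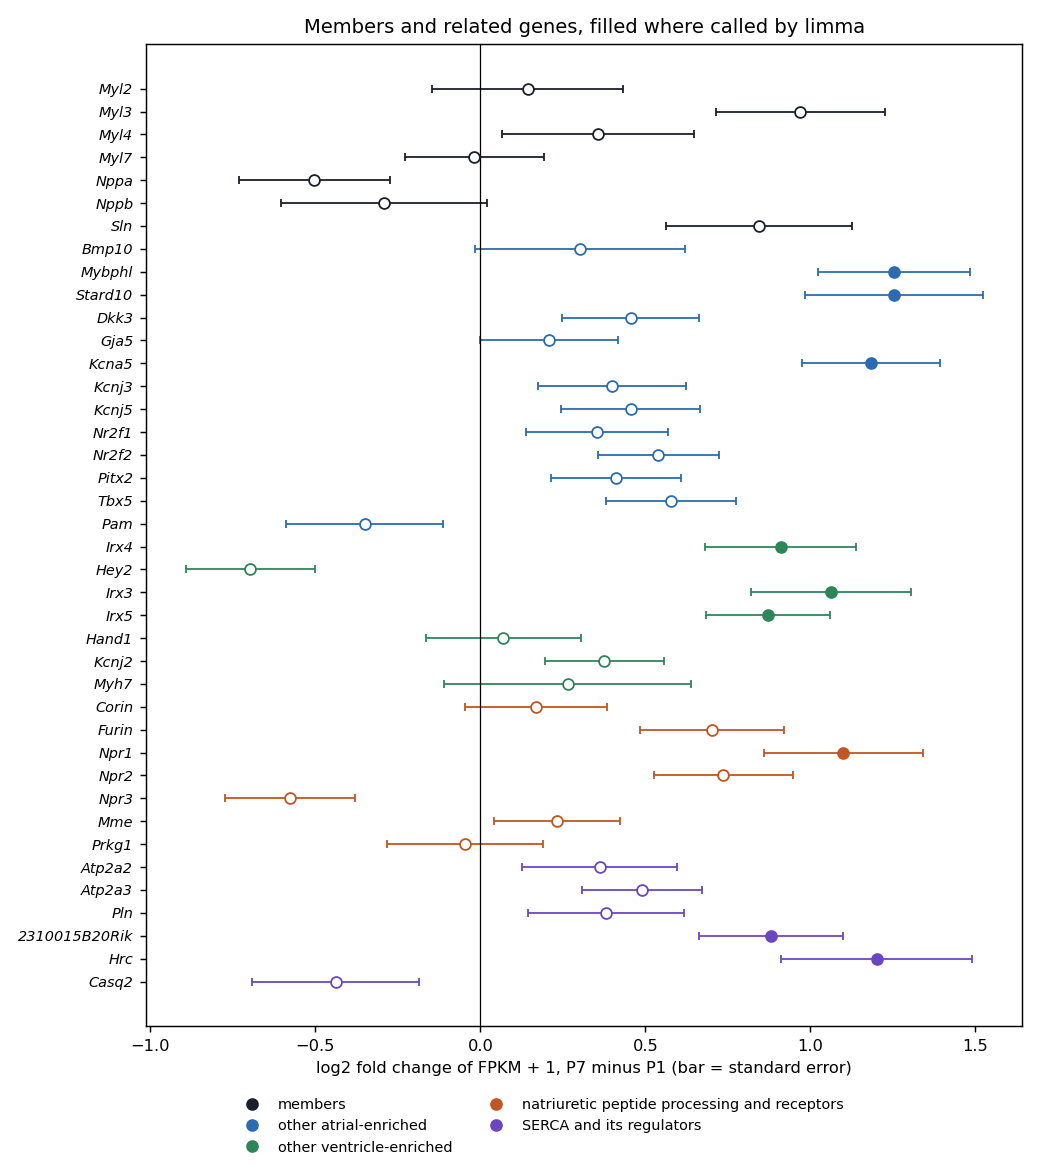
Log2 fold change of FPKM + 1, P7 minus P1, with its standard error from limma, for the 7 genes (black) and the tested genes of 4 related lists; filled points were called differentially expressed. The 7 genes are all open, with Myl3 (0.97) and Sln (0.84) farthest to the right and Nppa (-0.50) farthest to the left of them.

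The identity of the tissue was checked with marker genes. All 8 cardiomyocyte genes were abundant, between 66.8 FPKM (Ryr2) and 7187 FPKM (Actc1) in every heart, and 0 of them were called between the stages by limma (1 at an unadjusted p under 0.05). No marker of the skeletal muscle list, which does not hold Myl1, exceeded 5.96 FPKM (Tnni2). The sums of that list were 8.65 to 14.0 FPKM at P1 and 5.20 to 9.99 FPKM at P7. Of the 4 tested, 1 (Pvalb) was called lower at P7 (3.66 ± 1.09 and 0.454 ± 0.307 FPKM, limma adjusted p = 0.00553). Pvalb was at most 0.867 FPKM at P7, so it met the filter of 1 FPKM only through P1 hearts. No lung epithelial marker exceeded 2.33 FPKM (Sftpc). In the thymus list the Rag1 locus, which also carried the symbol B230118H07Rik, measured 31.2 to 55.7 FPKM over all hearts. No other marker of that list exceeded 0.342 FPKM (Cd3e). Of 4 fibroblast markers 2 were called higher at P7, and their sum was 377 to 690 FPKM at P1 and 879 to 1068 FPKM at P7. Of 4 endothelial markers 2 were called higher, with sums of 50.7 to 100.3 and 94.5 to 146 FPKM. Of 6 smooth muscle markers 1 was higher and 1 lower, with sums of 719 to 1441 and 382 to 874 FPKM. None of these fibroblast, endothelial and smooth muscle markers was at 0 in any heart, and the part of such cells in the results was not tested. Of 5 red blood cell markers 0 were called by limma, although all 5 had an unadjusted p under 0.05, with sums of 1614 to 3793 and 3704 to 4979 FPKM.

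Against the mean log2 FPKM of the 8 cardiomyocyte genes, only Myl3 of the 7 genes separated the stages (log2 difference 0.75, exact p = 0.0286). That p is the smallest this test allows, and the exact p values of this comparison are not adjusted for the 7 genes. The other differences were -0.73 for Nppa (exact p = 0.114), 0.62 for Sln (exact p = 0.343), -0.52 for Nppb (exact p = 0.171), -0.24 for Myl7 (exact p = 0.457), 0.13 for Myl4 (exact p = 0.314) and -0.08 for Myl2 (exact p = 0.343). The Sln difference was 0.20 without P1 replicate 4 and 0.38 without P7 replicate 1. The choice of reference mattered, since against troponin T alone (Tnnt2, itself at 1032 and 1684 FPKM) the Myl3 stages overlapped (0.21) and Myl2 (-0.61), Myl4 (-0.40), Nppa (-1.26) and Nppb (-1.05) were separated.

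Within a stage the 7 genes fell into different patterns across hearts. The correlations that follow are over the deviations of 8 hearts from their stage means, share library scaling, and are a description only. Myl2, Myl3 and Myl4 deviated together (r = 0.86 to 0.89), and they also followed the median ratio of the heart, a measure of its overall level over annotated loci (r = 0.80 to 0.90). Myl4 was nearly parallel to Tnnt2 (r = 0.98). Nppb followed the median ratio less closely (r = 0.66), and Myl7 (0.22), Nppa (0.09) and Sln (-0.30) hardly at all. Myl7 and Sln deviated together (r = 0.72). The other pairs among the genes known mainly from the atria did so less, from r = -0.28 (Myl4 and Sln) to 0.39 (Nppa and Sln), so these genes shared no common pattern. Sln and Myl2 were opposed (r = -0.61), and Nppa and Nppb were only loosely related (r = 0.43).

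**Figure D4:**
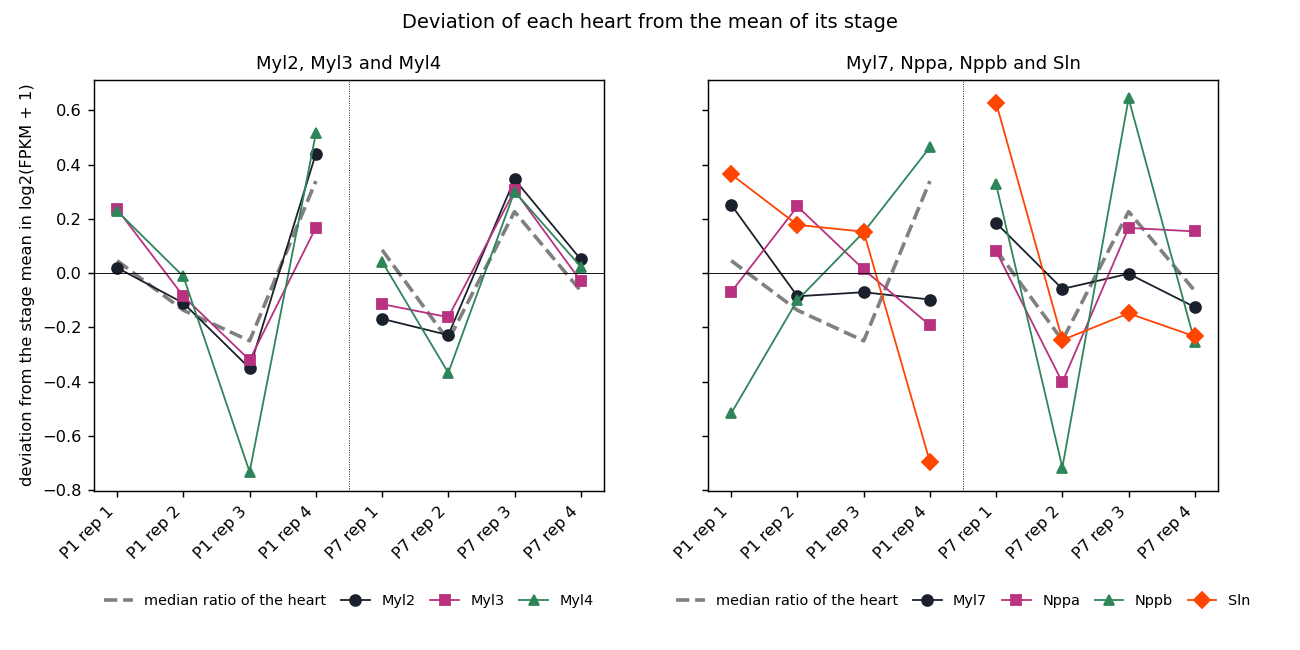
Deviation of each heart from the mean of its stage, in log2(FPKM + 1), for Myl2, Myl3 and Myl4 (left) and for Myl7, Nppa, Nppb and Sln (right); the dashed line is the log2 median ratio of the heart, centred in the same way. Myl2, Myl3 and Myl4 broadly follow the dashed line. In P7 replicate 1, however, Myl2 (-0.168) and Myl3 (-0.114) are below 0 while the line is above 0. Sln departs from the line most in P1 replicate 4 and P7 replicate 1.

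Among 6097 annotated loci with a mean of at least 10 FPKM, those whose deviations were closest to each member were as follows, again over 8 hearts and without a test. They were Coq5, Pgm2 and Ldha for Myl2 (r = 0.996 to 0.997) and the Gm1614 and Spata24 locus, Tsfm and Gpc1 for Myl3 (r = 0.984 to 0.994). For Myl4 they were the AL626775.1 and Meaf6 locus, Nsfl1c and Egln1 (r of at least 0.988). Sox4 was nearest to Myl7 (r = 0.987), Orc4 to Nppa (r = 0.925), Cyfip1 to Nppb (r = 0.967) and Dnajb9 to Sln (r = 0.973).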

How the data were processed

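For each of 8 hearts 1.5 µg of total RNA was ribodepleted and made into an RNA-seq library with the ScriptSeq v2 kit. Per the authors, a company that ran the bioinformatic analysis mapped reads to GRCm38 using Ensembl gene models, and the deposited values are FPKM per locus (aligner and strand setting not given in the sources used here). Locus starts in the deposited files count from 0, and 1 was added. Counts were not used here. Low values rise in steps of 1 fragment that are of similar size in all hearts in which they can be read (0.0588 to 0.0749 FPKM times kilobases), so that about 2607 fragments or more stand behind each member value.

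Symbols were split at commas and matched without regard to case. The 43172 loci that reached 1 FPKM in any heart were compared on log2(FPKM + 1) with limma 3.58.1 (R 4.3.3; lmFit, eBayes with trend, no covariates), with Benjamini-Hochberg adjustment over all tested loci. This scale understates the change of weakly expressed loci. Ratios and single values were compared with the exact two-sided permutation test over hearts (Python 3.11.15, scipy 1.17.1). The text names the 7 members, genes of fixed lists and the nearest loci by correlation; 112 of 115 list genes matched a locus. Members and lists were chosen with earlier results of these data known. Alternatives were the pseudocount, the filter, median-ratio and quantile scaling, the replicate block, quality weights, no trend and leaving out each heart; scaling to the annotated total and correction for transcript GC content (known for 85.9% of tested annotated loci) were chosen after seeing the data. Replicates are separate animals. Scripts were tested on simulated data. Protein sequences were not used here. Replicate numbers were checked for pairing, and same-numbered hearts did not deviate together (correlations -0.276 to 0.218).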

Additional observations from a re-analysis of the deposited data

Results flagged for a closer look

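In 5 of 156 groups of 4 hearts, 1 heart stood apart by Dixon's test (gap to the nearest heart divided by the range), fewer than the 7.8 that chance gives at 5%. Myl7 at P1 was flagged with a quotient of 0.930, since replicate 1 had 1446 FPKM and the others 1135 to 1157. Sln at P7 had a quotient of 0.916, since replicate 1 had 668 FPKM and the others 364 to 389.97. In P1 replicate 4, the ratio Sln/Pln was 0.0705 against 0.165 to 0.169 (quotient 0.954), Myh7, the slow ventricular myosin heavy chain, was at 372 FPKM against 97.4 to 134 (quotient 0.867), and Atp2a2 was at 1324 FPKM against 1908 to 2023 (quotient 0.836).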

How the results depend on the processing

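No member was called with a pseudocount of 0.1, no filter, any scaling or any heart left out. In contrast, 1 was called with a filter of 1 FPKM on every heart (Sln, adjusted p = 0.0392), with sample quality weights (Myl3, 0.0258) and without trend (Myl3, 0.0353). The 1650 loci called over the whole table became 686 without a filter, 2711 with that filter on every heart, 2561 with median-ratio scaling (1432 higher and 1129 lower, against 1490 and 160), 3697 with quality weights, 1079 without trend, 701 with scaling to the annotated total, 491 with GC correction, 551 with GC correction and the block, and 199 to 3379 with 1 heart left out. With the replicate number as a block 1283 loci and 0 members were called. The numbers do not pair the hearts, and under the block 7 of the 10 genes called in the related lists were called, without Irx4 (adjusted p = 0.0720), Irx5 (0.0546) and 2310015B20Rik (0.0631); for a single ratio over 4 pairs it cannot give an exact p under 0.125. Median-ratio scaling moved the median annotated log2 fold change from 0.191 to -0.014.

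Directions that turned were Myl2 with median-ratio scaling (-0.133), with the annotated total (-0.039) and, against cardiomyocyte genes, with GC correction (0.018); Myl7, whose values with single hearts left out ran from -0.079 to 0.066, without P1 replicate 1 (0.066) and without replicate 2 (0.002) or 4 (0.024) of P7; and Myl4 against Tnnt2 alone (-0.402). Against Tnnt2 alone 4 members separated the stages, in place of 1. With GC correction the log2 difference of Nppa/Myl2 was -0.937 and its stages did not overlap (exact p = 0.0286). The same correction moved Myl7/Myl2 from -0.16 to -0.433 and Nppa/Nppb from -0.211 to -0.608, with overlapping stages. Myl4/Myl3 (-0.621) and Myl3/Myl2 (0.761) changed less and their stages stayed apart. After GC correction 0 of the 10 ratios had an adjusted p under 0.05. With 1 heart left out no exact p can be under 0.0571, so those values carry no test. The causes were not tested.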
